A study of Mus musculus with 4 samples.

Results

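Cycling myeloid cells were picked out of single-cell RNA sequencing of mouse tumours by their own transcripts. Of 20607 cells kept, 193 met the rule, 84 of 9990 in the matrix of IL-27-treated tumours and 109 of 10617 in the control matrix. A member had at least 3 UMIs (unique molecular identifiers, 1 per captured transcript) of Mki67, Top2a and Birc5 together with at least 2 of these 3 genes seen, at least 2 UMIs of Tyrobp and at least 3 of Lyz2 and Cst3. It had no UMI of Cd3d, Cd3e, Cd3g or Ncr1, at most 4 UMIs of Ngp, Camp and Ltf and at most 1 of Krt8 and Krt18. Mki67 marks chromosomes of dividing cells, Top2a untangles replicated DNA and Birc5 guides chromosome attachment. Tyrobp is a signalling adaptor of myeloid and NK cells, and Lyz2 and Cst3 encode lysozyme and the protease inhibitor cystatin C. These values chose the cells, so their levels are a description and support nothing.

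Myeloid cells of a tumour are mostly replaced from blood monocytes and dendritic precursors, but resident macrophages and conventional dendritic cells can also divide in place. A dividing cell loads MCM helicases on DNA at the G1/S boundary, copies its DNA while it makes histones for the new chromatin, and then switches to genes for chromosome attachment and separation. Many G1/S genes are bound by E2F factors, while many mitotic genes are silenced outside division through a promoter element with the letters TTTGAA and are driven by the CCAAT-binding factor NF-Y. Conventional type 1 dendritic cells (cDC1), which take up dead cells and show their antigens to CD8 T cells, keep the growth factor receptor Flt3. Macrophages instead depend on the receptor Csf1r and make the complement proteins C1qa, C1qb and C1qc.

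Host animals were B6C3F1 hybrid mice, given as 6 to 8 weeks old, that carried subcutaneous tumours of OV2944-HM1, a mouse ovarian cancer line, after injection of 1000000 cells. Treated mice received 100 ng recombinant mouse IL-27, an interleukin that signals through Il27ra and Il6st, into the tumour on the implantation day and every other day after it, and control mice received vehicle on that schedule. Cells were taken on day 14 after dissociation and enrichment with CD45 beads. Although there are 2 entries for each condition, their cells share 1 matrix and carry no tag of the entry, so each condition has n = 1. No difference has a replicate check, and intervals (95%, exact) cover counting error only. The sources used here do not say how many mice stand behind a matrix.

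The IL-27 matrix held 10183 barcodes and 43868189 UMIs, and the control matrix 10784 barcodes and 54049661 UMIs. Members had a median of 12324 UMIs (1278 to 54118) in the IL-27 matrix and 11329 (1592 to 50534) in the control matrix. Non-cycling cells of the same gate, with no UMI of the 3 division genes, had medians of 3611 and 3834 UMIs. The matrices shared 133 barcodes, of which 0 belonged to members. No doublets were removed: 7 IL-27 and 8 control members had doublet scores in the top 8% of their matrix. Mitochondrial genes took a median of 1.61% of UMIs in IL-27 members and 1.42% in control members.

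Mki67 was seen in 67 of 84 IL-27 members (325 CPM) and 91 of 109 control members (261 CPM). Top2a was seen in 76 IL-27 members (347 CPM) and 94 control members (294.5 CPM), and Birc5 in 70 (193 CPM) and 100 (243 CPM). The sum of the 3 genes had a median of 6 UMIs per IL-27 member and 7 per control member, with highest values of 56 and 104. At the threshold, the 14 IL-27 and 17 control members with exactly 3 division UMIs had 4330 and 3246 CPM (counts per 1000000 UMIs) over 63 mitotic genes that the rule did not use. The 214 IL-27 and 309 control gate cells just outside, with 1 or 2 division UMIs, had 1152 and 1241 CPM. Another 48 IL-27 and 60 control cells had 3 or more division UMIs but only 1 of the genes. These had 1211 and 1235 CPM of the mitotic genes, close to the cells just outside and far below the members.

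The labels call the sorted cells lymphocytes, whereas the rule chose the members by myeloid genes, so their myeloid markers are a description. B cell gene Ms4a1 had no UMI in a member of either matrix. All 7 T cell markers together had 9 UMIs in IL-27 members and 7 in control members, but the rule itself set Cd3d, Cd3e and Cd3g to 0. Of 7 markers of granulocyte and monocyte precursors 3 were detected in IL-27 and 4 in control members, at 118 and 135 CPM. Non-cycling cells had 74.8 and 74.7 CPM of this set. Kit in the members with cDC1 genes, a group described below, gave 82 of the 163 IL-27 and 110 of the 206 control member UMIs of the set. Mpo, Elane and Ctsg, enzymes of early granules, had 0 UMIs in the members of both matrices, while Prtn3, Kit and Cd34 were detected in both. Ly6c2, a marker of inflammatory monocytes, was seen in 0 of 84 IL-27 and 3 of 109 control members. Of the 6 monocyte markers with Ly6c2 among them, 5 were detected in IL-27 and 6 in control members. This set was at 164 and 260 CPM, against 1003 and 966 CPM in the non-cycling cells. The mature neutrophil set (6 of 6 markers detected in each matrix) reached 880 CPM in IL-27 members and 1699 CPM in control members, against 4241 and 6694 CPM in the non-cycling cells. With members limited to at most 20 UMIs of the neutrophil genes S100a8 and S100a9, 37 of 37 named genes past 1.5-fold between the matrices stayed past it.

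Promoters show how the 2 arms of the division programme differ in sequence. The windows are from RefSeq on GRCm38.p6, 250 bases before to 50 after the start, 5′ to 3′ on the strand of the gene. Mki67 (chr7:135716330-135716629, minus strand), the chromosome coat gene of the rule, Cdk1 (chr10:69352863-69353162, minus), the kinase that starts mitosis, and Ube2c (chr2:164769679-164769978, plus), which tags mitotic proteins for destruction, stand for the mitotic arm. In these, capitals mark TTTGAA and CCAAT on either strand. Cdk1 is also 1 of the 3 mitotic genes counted below with an E2F word, which is left in lower case.
Mki67: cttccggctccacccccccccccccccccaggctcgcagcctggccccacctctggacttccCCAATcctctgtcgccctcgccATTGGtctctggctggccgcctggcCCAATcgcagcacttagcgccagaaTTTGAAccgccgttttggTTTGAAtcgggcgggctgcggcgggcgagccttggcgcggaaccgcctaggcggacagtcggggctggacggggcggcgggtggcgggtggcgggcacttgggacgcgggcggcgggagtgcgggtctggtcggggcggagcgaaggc
Cdk1: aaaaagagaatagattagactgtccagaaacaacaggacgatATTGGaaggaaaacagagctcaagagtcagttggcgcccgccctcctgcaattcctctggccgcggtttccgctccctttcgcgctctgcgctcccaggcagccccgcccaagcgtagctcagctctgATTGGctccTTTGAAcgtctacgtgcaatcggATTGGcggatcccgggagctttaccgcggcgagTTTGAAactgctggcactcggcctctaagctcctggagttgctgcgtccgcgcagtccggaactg
Ube2c: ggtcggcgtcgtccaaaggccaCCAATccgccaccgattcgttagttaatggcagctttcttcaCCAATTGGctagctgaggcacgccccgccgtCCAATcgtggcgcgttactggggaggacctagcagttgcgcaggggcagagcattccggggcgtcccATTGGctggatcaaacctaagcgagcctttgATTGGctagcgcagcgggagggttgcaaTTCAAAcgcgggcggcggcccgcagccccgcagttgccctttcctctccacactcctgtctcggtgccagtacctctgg
Mcm3 (chr1:20820263-20820562, minus) and Mcm5 (chr8:75109259-75109558, plus), subunits of the replication helicase, stand for the S-phase arm. Here capitals mark the E2F words TTTCCCGC, TTTGGCGC, TTTGCCGC and TTTCGCGC on either strand, which overlap each other in Mcm5. The CCAAT letters that both windows also hold, 3 in each, are left in lower case.
Mcm3: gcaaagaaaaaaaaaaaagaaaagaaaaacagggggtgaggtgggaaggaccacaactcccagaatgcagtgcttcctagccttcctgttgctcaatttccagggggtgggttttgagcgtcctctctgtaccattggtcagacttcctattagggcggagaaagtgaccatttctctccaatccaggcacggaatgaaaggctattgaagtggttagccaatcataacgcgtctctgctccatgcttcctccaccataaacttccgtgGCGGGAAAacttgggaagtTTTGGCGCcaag
Mcm5: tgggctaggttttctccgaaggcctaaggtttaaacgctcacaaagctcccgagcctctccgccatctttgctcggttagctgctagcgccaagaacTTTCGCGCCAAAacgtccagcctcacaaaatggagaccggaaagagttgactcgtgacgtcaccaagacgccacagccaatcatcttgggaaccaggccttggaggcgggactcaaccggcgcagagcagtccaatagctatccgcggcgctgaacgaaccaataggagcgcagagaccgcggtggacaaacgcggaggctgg
TTTGAA was found in 36 of the 53 mitotic genes with a window (67.9%) and in 4 of 38 S-phase genes (10.5%), against 18.1% of all 27025 promoters. An E2F word was found in 3 of 53 mitotic genes (5.66%) and 15 of 38 S-phase genes (39.5%), against 2.32% of all promoters. CCAAT was found in 73.6% of the mitotic and 55.3% of the S-phase genes, against 37.9% of all promoters. These are matches of letters, not sites of binding, and these genes were chosen for the promoters after their values were seen.

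Members made up a similar share of the myeloid gate with and without IL-27. They were 84 of 2850 gate cells (2.95%, 2.36 to 3.64) in the IL-27 matrix and 109 of 3447 (3.16%, 2.60 to 3.80) in the control matrix. The ratio of the shares was 0.932 (0.693 to 1.25) and its interval includes 1. Of all cells kept, members were 0.841% (0.671 to 1.04) with IL-27 and 1.03% (0.844 to 1.24) in control, a ratio of 0.819 (0.609 to 1.10). Of all cells past the division threshold, 84 of 242 IL-27 cells (34.7%) and 109 of 310 control cells (35.2%) were members. Gate cells with at least 2000 UMIs were also thinned to that depth. Then 168 of 2170 IL-27 (7.74%) and 234 of 2812 control cells (8.32%) had a division UMI, a ratio of 0.930 (0.759 to 1.14). These shares lie near those of cells high in S100a8 and S100a9 given below (7.15% and 5.95%). How much of either came from dividing cells was not tested, so this ratio says little about dividing cells.

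The make-up of the members by marker group differed between the 2 matrices. Members were sorted by UMIs of C1qa, C1qb and C1qc (at least 3, the C1q group), of the cDC1 genes Xcr1, Clec9a and Cadm1 (at least 2, the cDC1 gene group) or of Ccr7 (at least 2), the receptor that leads dendritic cells to lymph nodes. In the IL-27 matrix 26 of 84 members (30.95%, 21.3 to 42.0) fell in the cDC1 gene group, against 16 of 109 (14.7%, 8.63 to 22.7) in control, a ratio of 2.11 (1.09 to 4.21). The C1q group held 34 IL-27 members (40.5%) and 63 control members (57.8%), a ratio of 0.700 (0.447 to 1.08). The Ccr7 group held 8 IL-27 and 9 control members. Another 3 IL-27 and 8 control members met the C1q minimum together with that of cDC1 genes or Ccr7 (the mixed group), and 13 members of each matrix were in no group. Plasmacytoid dendritic cells, marked by Siglech, were not detectable among members: 0 of 32 IL-27 gate cells with Siglech were members (0 to 10.9%) and 0 of 23 control cells (0 to 14.8%). Giving each member to whichever of the C1q and cDC1 sets had more UMIs left the order in place, with 33.3% of IL-27 and 15.6% of control members on the cDC1 side.

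Among gate cells with cDC1 genes, 26 of 104 IL-27 cells were members (25.0%, 17.0 to 34.5) and 16 of 115 control cells (13.9%, 8.17 to 21.6), a ratio of 1.80 (0.928 to 3.59) whose interval includes 1. The interval overlapped that of the mixed group in each matrix, and in control also those of the Ccr7 group and of cells with Siglech. These cells were deeper than C1q cells, with medians of 19040 UMIs in IL-27 and 18456 in control, against 3715 and 4244 in the gate cells of the C1q group. After thinning to 2000 UMIs the shares of cDC1 gene cells with a division UMI were 21.4% (13.9 to 30.5) and 12.4% (6.94 to 19.9), a ratio of 1.72 (0.843 to 3.64). At that equal depth the control groups lay close together and overlapped, with 12.2% for the mixed, 11.2% for the Ccr7 and 11.1% for the C1q group. In the IL-27 matrix the mixed group had 6.67% (0.818 to 22.1) and the C1q group 9.90% (7.60 to 12.6). Of C1q cells, 34 of 745 IL-27 cells (4.56%) and 63 of 1184 control cells (5.32%) were members, a ratio of 0.858 (0.548 to 1.32), with 0.893 (0.636 to 1.24) after thinning. Both intervals include 1. The cDC1 gene cells made up 3.65% of the gate with IL-27 and 3.34% in control, a ratio of 1.09 (0.831 to 1.44), whereas C1q cells were 26.1% and 34.4% (0.761, 0.693 to 0.835). In gate cells of no group the thinned share with a division UMI was 5.75% and 5.76%. Kept cells of any type with over 20 UMIs of S100a8 and S100a9 still gave 7.15% and 5.95% by that measure. They were not held to the myeloid gate and could include dividing cells, so they are not a measured background. Thinned shares near this level, such as 7.63% for IL-27 Ccr7 cells, cannot be told apart from it.

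**Figure D1:**
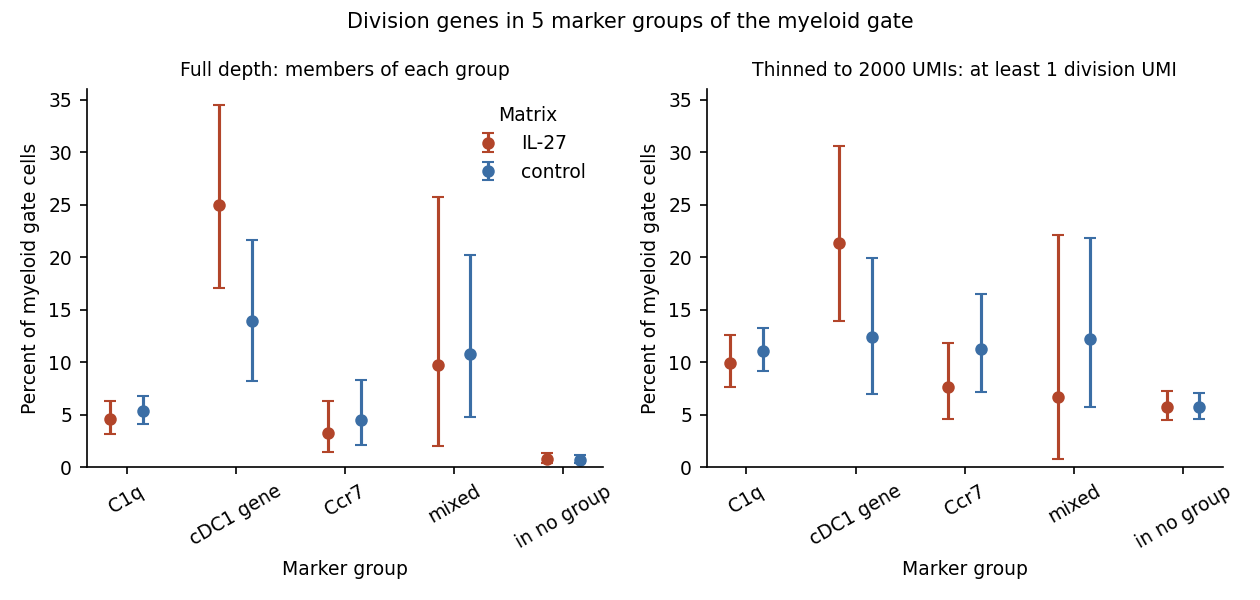
Percent of myeloid gate cells in 5 marker groups that were members (left) or that had a division UMI after thinning to 2000 UMIs (right), IL-27 in red left of control in blue, with exact 95% intervals for counting error. The right panel holds only cells with at least 2000 UMIs. For cDC1 gene cells the left panel gives 25.0% with IL-27 and 13.9% in control. In the right panel the control values of the cDC1 gene (12.4%), mixed (12.2%), Ccr7 (11.2%) and C1q (11.1%) groups overlap.

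Free RNA was gauged in cells that should lack these genes. Among T cells without a Tyrobp UMI (562 IL-27 cells of median 4285.5 UMIs, 548 control cells of median 5815.5), 2 IL-27 and 5 control cells reached the C1q minimum and 6 and 4 the cDC1 minimum. These are 0.356% and 0.912% of the T cells for C1q, and 1.07% and 0.730% for the cDC1 genes. Leaving out T cells with Tyrobp can also leave out cells with stray myeloid RNA, so these shares may be too low. The rule gene Cst3 still had a UMI in 63.0% and 73.0% of these T cells, and Lyz2 in 7.47% and 8.58%. The T cells were also shallower than the cDC1 gene cells (medians of 19040 and 18456 UMIs).

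The cDC1 gene members had the rest of a cDC1 programme, in genes that did not define the group. Itgae, the integrin chain CD103, was seen in 26 of 26 IL-27 and 14 of 16 control members, and in 0 C1q members of either matrix. Flt3 was seen in 25 of 26 and 14 of 16, and again in 0 C1q members. Wdfy4, needed for showing antigens of dead cells, was seen in 26 and 15 of them, and in 9 of 34 IL-27 and 15 of 63 control C1q members. Kit, the stem cell factor receptor, was seen in 21 and 16 cDC1 gene members. Csf1r had 0 UMIs in all of them. In 17 IL-27 and 9 control cDC1 gene members Ccr7 was present too, so the group mixed cells with and without this maturation gene. Their median totals were 27976 and 26398 UMIs, and they supplied 56.2% of all member UMIs in the IL-27 matrix and 28.1% in the control matrix.

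The C1q members carried macrophage genes. The mannose receptor Mrc1 was seen in 25 of 34 IL-27 and 54 of 63 control members, Csf1r in 18 and 50 and the chemokine Ccl24 in 28 and 45. Arg1, the arginine-degrading enzyme of suppressive macrophages, was seen in 25 of 34 IL-27 and 34 of 63 control members. Clec9a and Flt3 had no UMI in any C1q member. They were shallower than the cDC1 gene members, with medians of 4616.5 UMIs in IL-27 and 8126 in control, a depth gap that bears on every share of C1q members with a UMI. Doublet scores in the top 8% of the matrix were found in 5 of 34 IL-27 and 6 of 63 control C1q members. In the cDC1 gene and Ccr7 groups 0 members had such scores, and the others were in the mixed group or in no group.

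The 8 IL-27 and 9 control Ccr7 members held part of the genes of the mature dendritic cells that Ccr7 usually marks. Fscn1, the actin-bundling protein of mature dendritic cells, had 0 UMIs in all of them, whereas 85 of 183 IL-27 and 49 of 149 control non-cycling Ccr7 cells had it. Cacnb3 was at 0 as well, against 79 and 54 non-cycling cells. The chemokine Ccl22 was present in 5 of 8 IL-27 and 9 of 9 control members, at 550 and 617 CPM, beside 1641 and 904 CPM in the non-cycling Ccr7 cells. Il4i1, an amino acid oxidase, was seen in 2 of 8 and 6 of 9, at 19.0 and 336 CPM, beside 264 and 434.5 CPM. Ccl17, a chemokine for T cells, was seen in 8 of 8 and 9 of 9, at 5535 and 3430 CPM, and Irf4, a transcription factor of type 2 dendritic cells, in 8 and 8. Il7r was seen in 8 IL-27 and 7 control members, Csf1r in 7 and 6, Itgae in 6 and 6 and the dendritic receptor Cd209a in 5 and 4. With dendritic and macrophage markers in the same cells, the group is given no cell type name.

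**Figure D2:**
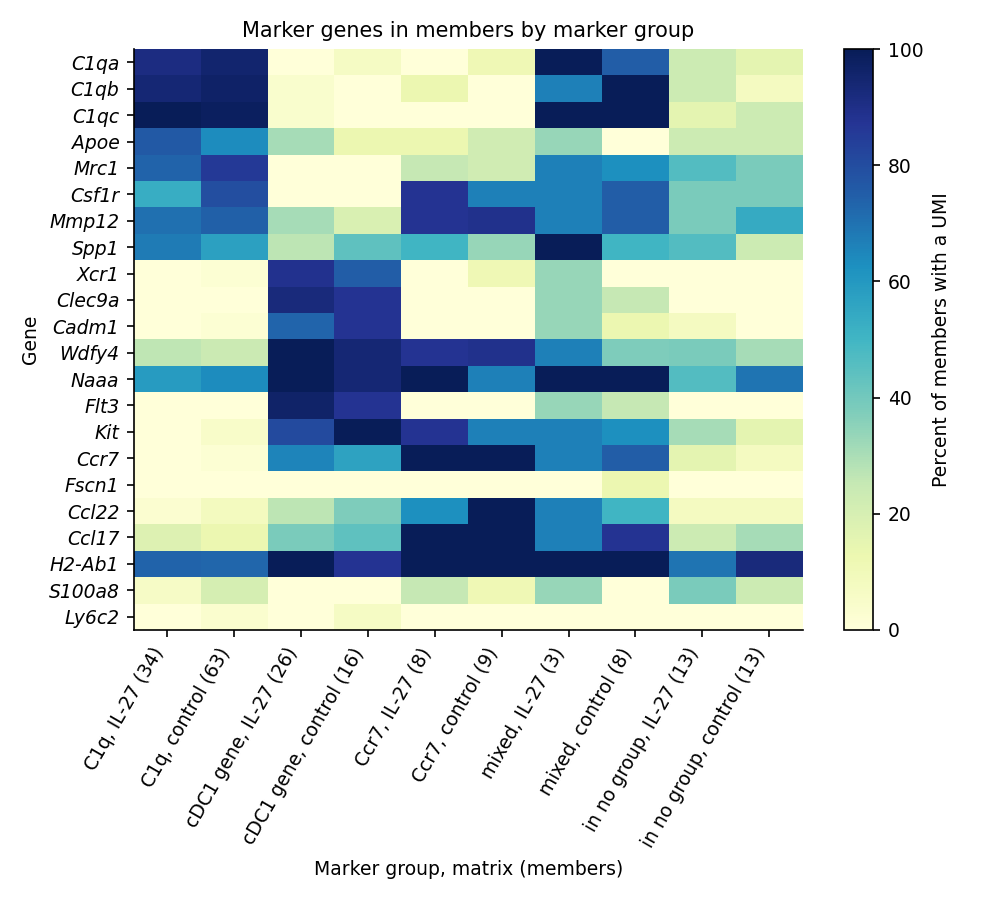
Percent of members with a UMI of each marker gene (rows), by marker group and matrix (columns, number of members in brackets), on a colour scale of 0 to 100%. Flt3 and Clec9a fill the cDC1 gene columns and are empty in the C1q columns, while Fscn1 is empty in the C1q, cDC1 gene and Ccr7 columns.

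The balance of cycle genes differed by marker group, in members that were chosen on division genes. S-phase genes (46 genes of G1/S licensing and DNA synthesis) together with 23 replication histones had more UMIs than the 63 mitotic genes in 20 of 26 IL-27 and 13 of 16 control cDC1 gene members. In C1q members that held for 5 of 34 and 12 of 63, and in Ccr7 members for 8 of 8 and 5 of 9. Over all members it was 38 of 84 in IL-27 (45.2%) and 34 of 109 in control (31.2%). The median share of S-phase and histone UMIs was 0.806% in IL-27 and 0.961% in control cDC1 gene members, against 0.351% and 0.374% in C1q members. Mitotic genes had medians of 0.683% and 0.717% in cDC1 gene members and 0.809% and 0.718% in C1q members. The minimum of 3 division UMIs was the same at every depth. C1q members had medians of 4616.5 and 8126 UMIs, against 27976 and 26398 in cDC1 gene members. Members with 4 division UMIs had 771 CPM of replication histones in IL-27 and 902 in control. Those with 5 or more had 5606 and 3827 CPM. The part of depth and of the rule in this balance was not tested.

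**Figure D3:**
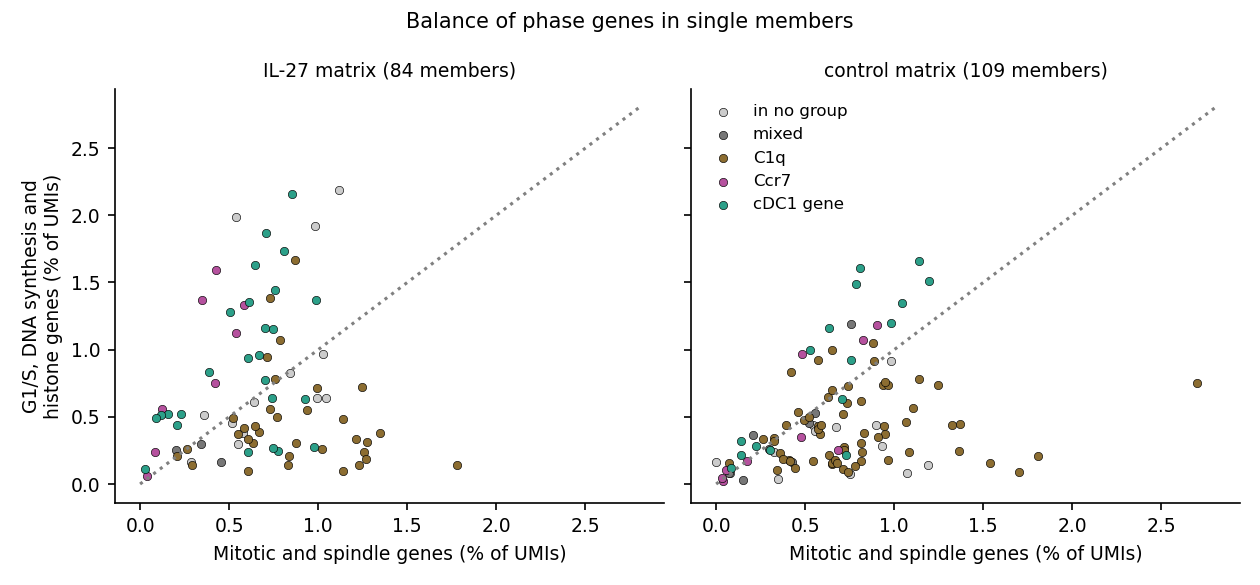
Each point is 1 member, with the percent of its UMIs in mitotic and spindle genes on the x axis and in G1/S, DNA synthesis and histone genes on the y axis, IL-27 left and control right, coloured by marker group. Most cDC1 gene members lie above the dotted line of equal shares (20 of 26 in IL-27, 13 of 16 in control) and most C1q members below it.

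Summed over all members, S-phase genes were higher in the IL-27 matrix and mitotic genes nearly level. G1/S licensing genes reached 1485 CPM in IL-27 members and 983 CPM in control members, a ratio of 1.51 (1.41 to 1.62). DNA synthesis genes reached 2001 and 1441 CPM, a ratio of 1.39 (1.31 to 1.47). Mitotic entry genes were at 1401 and 1524 CPM (ratio 0.919, 0.865 to 0.977) and spindle genes at 4332 and 4542 CPM (0.954, 0.921 to 0.987). The difference was smaller among C1q members, at 2514 CPM of S-phase genes in IL-27 and 2285 CPM in control, a ratio of 1.10 (0.989 to 1.22), beside 7636 and 6697 CPM of mitotic genes (1.14, 1.07 to 1.21). Among cDC1 gene members the S-phase genes were at 3979 and 3045 CPM, a ratio of 1.31 (1.23 to 1.40), and 1 control cell gave 20.2% of the control UMIs. Cycling T cells of the same matrices, 66 IL-27 and 110 control cells, had 4536 and 5004 CPM, a ratio of 0.906 (0.878 to 0.935), the other way round.

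Single S-phase genes with the widest ratios were of helicase loading and chromatin copying. Uhrf1, which keeps DNA methylation through replication, had 79.0 CPM in IL-27 members and 38.1 CPM in control members, a ratio of 2.08 (1.496 to 2.91). Slbp, the protein that binds the stem-loop of histone mRNAs, had 123 and 61.7 CPM (2.00, 1.54 to 2.60). It was on the same side in C1q members at 105 and 59.7 CPM (1.77, 0.969 to 3.14) and in cDC1 gene members at 133 and 91.1 CPM (1.46, 0.999 to 2.16). Mcm2 had 76.8 and 40.0 CPM (1.92) and Mcm6 123 and 70.2 CPM (1.76), both subunits of the helicase. Within groups they parted: Mcm6 was at 79.1 CPM in IL-27 and 81.2 CPM in control C1q members, and at 139 and 65.4 CPM in cDC1 gene members (2.13, 1.39 to 3.35). Pcna, the sliding clamp of the polymerase, had 263 and 165 CPM (1.60, 1.36 to 1.88), with 1.64 in cDC1 gene and 1.21 in C1q members. Atad2, a chromatin reader, had 126 and 51.2 CPM (2.46, 1.88 to 3.26), and its ratio was 0.771 (0.308 to 1.70) in C1q members. Pclaf, a partner of the clamp, had 508 and 379 CPM (1.34, 1.20 to 1.498) with about that ratio in C1q (1.34) and cDC1 gene members (1.31).

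Of 4160 genes measured in members, 356 (8.56%) were at least 1.5-fold higher with IL-27 and 423 (10.2%) at least 1.5-fold lower. Against that background 6 of 12 measured G1/S genes and 6 of 17 DNA synthesis genes were past 1.5-fold higher and 0 of each lower. Their median log2 ratios were 0.61 and 0.52, beside -0.03 over all genes. None of the 12 measured mitotic entry genes was past 1.5-fold either way (median -0.12). In the spindle list, whose median of 0.13 lay above 0 although its summed ratio was below 1, 2 of 24 were lower: Cenpa, the histone of centromeres, at 117 and 195.5 CPM (0.601, 0.493 to 0.730), and Cdca3, a mitotic ubiquitin adaptor, at 89.8 and 144 CPM (0.625, 0.498 to 0.783). Ube2c was at 302 CPM in IL-27 and 363 CPM in control members (0.831, 0.730 to 0.946). H2afz and Hmgb2, chromatin proteins of dividing cells, were at 3553 and 2918 CPM and at 1382 and 1058 CPM. Within groups H2afz was near level, with ratios of 0.919 in C1q and 0.982 in cDC1 gene members.

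Replication histones split by type. The 18 core histone genes, which form the nucleosome, reached 2810 CPM in IL-27 members and 1378 CPM in control members, a ratio of 2.04 (1.93 to 2.15). The 5 linker histone genes, whose proteins sit between nucleosomes, were at 1996 and 1959 CPM (1.02, 0.967 to 1.07). Within cDC1 gene members core histones were at 3447 and 2353 CPM (1.47, 1.36 to 1.58) and linker histones at 2182 and 3954 CPM (0.552, 0.516 to 0.591). In C1q members the ratios were 1.21 (1.03 to 1.42) for core and 0.745 (0.609 to 0.906) for linker histones, while the median log2 ratio of the 6 single histone genes measured there was -0.47. The same split stood outside the myeloid cells. Cycling T cells had core and linker ratios of 1.67 (1.61 to 1.73) and 0.794 (0.765 to 0.824), and cycling cells with keratin UMIs (53 IL-27, 46 control) 1.18 (1.14 to 1.23) and 0.514 (0.490 to 0.539). Core histones were thus higher relative to linker histones in the IL-27 matrix in all 3 kinds of cycling cell, and the part of library preparation in this was not tested.

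Hist1h3c (chr13:23744973-23745602 on mm10), a histone H3 gene, had the highest ratio of all measured genes. It had 190 UMIs in 38 of 84 IL-27 members (138 CPM) and 25 UMIs in 17 of 109 control members (16.4 CPM), a ratio of 8.39 (5.52 to 13.3). In C1q members the ratio was 7.95 (2.29 to 34.7), from 10 and 4 UMIs, and in cDC1 gene members 6.90 (3.63 to 14.7). Cycling T cells gave 3.15 (2.59 to 3.84) and cycling keratin cells 3.89 (2.95 to 5.20). Hist1h4d, a histone H4 gene, was at 324 and 89.9 CPM (3.60, 2.97 to 4.40), close to 3.44 in cycling T cells and 3.60 in keratin cells. Hist1h4c (3.67) and Hist1h2an (6.32), of histones H4 and H2A, lay on the same side. The linker genes Hist1h1e (635 and 659 CPM, 0.964) and Hist1h1b (560 and 516 CPM, 1.09) were near level. Histone genes are near-identical copies, so the authors' counting could move reads between them and single genes are uncertain.

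**Figure D4:**
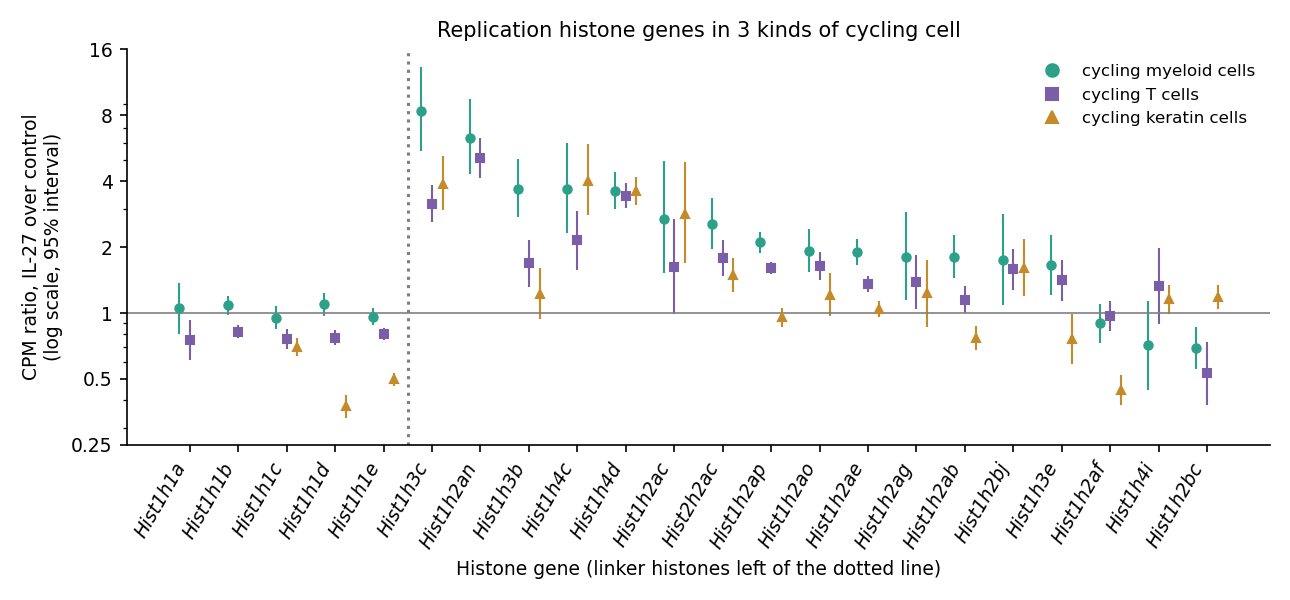
CPM ratio of IL-27 over control (log axis, exact 95% intervals) for replication histone genes with at least 30 UMIs in cycling myeloid cells, cycling T cells and cycling keratin cells. Core histones such as Hist1h3c (8.39 in cycling myeloid cells) lie mostly above 1 and linker histones, left of the dotted line, near or below it.

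For lineage genes the ratio summed over all members is given beside that within a marker group, since cDC1 gene cells gave 56.2% of IL-27 member UMIs and 28.1% of control ones. How much of a summed ratio came from the make-up of the members was not tested. Flt3 had 109 CPM in IL-27 and 37.4 CPM in control members, a ratio of 2.91 (2.13 to 4.02), but 189.5 and 126 CPM (1.502, 1.09 to 2.09) within cDC1 gene members. Other cDC1 genes in those members did not all share that direction. Irf8 was at 367.5 and 689 CPM, Kit at 106 and 257 CPM and Clec9a, which helped define the group, at 124 and 234 CPM. Wdfy4 was at 739 and 685 CPM and Naaa at 1084 and 967 CPM. Csf1r had 72.5 and 126 CPM (0.575, 0.447 to 0.736), but 211 and 217 CPM (0.971) within C1q members. Cebpb, a transcription factor of monocytes and macrophages, had 325 and 925 CPM (0.351, 0.315 to 0.391), and 1191 and 1658.5 CPM (0.718, 0.619 to 0.831) within C1q members. In the complement list 6 of 8 measured genes were past 1.5-fold lower over all members (median log2 -1.17), yet within C1q members 0 of 6 were and the median was 0.30. C1qa and C1qb there were at 1296 and 946 CPM and at 1154 and 915 CPM, genes that also defined the group.

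Within C1q members, the inflammatory cytokines were lower with IL-27. The neutrophil genes S100a8 and S100a9 were lower too, with most of their control UMIs in 5 cells. Of 1354 genes measured there, 42 (3.1%) were past 1.5-fold higher and 260 (19.2%) past 1.5-fold lower, a lopsided count because the IL-27 cells held 189757 UMIs and the control cells 603567, so a gene high in IL-27 passed the minimum of 50 UMIs less easily. The median of all genes was -0.26 in log2. In the inflammatory cytokine list 7 of 11 measured genes were past 1.5-fold lower and 0 higher, with a median of -0.86. S100a8 was at 10.5 CPM in IL-27 and 573 CPM in control C1q members, and S100a9 at 5.27 and 986 CPM. Median mitochondrial shares there were 0.775% and 1.42%. More than 20 UMIs of S100a8 and S100a9 were found in 0 of 34 IL-27 and 5 of 63 control cells. These 5 cells had 428, 363, 45, 37 and 35 such UMIs, where all control C1q members had 346 of S100a8 and 595 of S100a9. Without the 5 cells, 6 of 10 measured cytokines were past 1.5-fold lower, with a median of -0.72 beside -0.23 over all genes. Il1b, the fever cytokine, had 2108 CPM in IL-27 and 4367 CPM in control C1q members, a ratio of 0.483 (0.433 to 0.536). Non-cycling C1q cells had 3429 and 5150 CPM of it, lower with IL-27 too. Tnf had 111 and 209 CPM (0.530, 0.317 to 0.846) and Thbs1, an adhesive matrix protein, 775 and 1716.5 CPM (0.451, 0.377 to 0.537). Without the 5 control cells the ratios were 0.579 for Il1b, 0.553 for Tnf and 0.502 for Thbs1. Ccl3, a chemokine for monocytes and T cells, had 464 and 774 CPM (0.599, 0.472 to 0.754), whereas Ccl4 had 1486 and 1713 CPM (0.868, 0.758 to 0.991) and the neutrophil attractant Cxcl2 2877 and 3809 CPM (0.755, 0.687 to 0.830). Without the 5 cells Ccl3 was at 0.699 (0.547 to 0.886), no longer past 1.5-fold, and Cxcl2 at 0.913 (0.827 to 1.01), whose interval includes 1. Of 16 measured chemokines 5 were past 1.5-fold lower and 1 higher, with a median of -0.00, so the list as a whole was not lower. Hilpda, a lipid droplet gene of hypoxia, had 353 and 590 CPM (0.599, 0.454 to 0.779). The glycolysis and hypoxia list did not stand apart from all genes, with 4 of 15 past 1.5-fold lower and a median of -0.27.

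Genes of alternative activation and lipid handling did not share that direction in C1q members. Of 11 measured genes 2 were past 1.5-fold higher and 2 lower, with a median log2 ratio of 0.37. Fabp5, a fatty acid carrier, had 1481 CPM in IL-27 and 953 CPM in control C1q members, a ratio of 1.55 (1.34 to 1.80). Spp1, the matrix protein osteopontin, had 891 and 1365 CPM (0.652, 0.550 to 0.771). Mmp9, a gelatin-degrading protease, had 3394 and 2341 CPM (1.45, 1.32 to 1.59). The matrix enzyme list did not rise in C1q members. It had 3 of 8 measured genes past 1.5-fold lower and 0 higher, with a median of -0.34 beside -0.26 over all genes. For Il1rn, the blocker of the IL-1 receptor, the values were 928 and 1031 CPM (0.900, 0.757 to 1.07), so the cytokine Il1b and its blocker did not keep step. Fth1, the iron-storing ferritin chain, had 16421 and 23457 CPM (0.700, 0.673 to 0.728). Csf2rb, the shared receptor chain for GM-CSF and IL-3, had 453 and 837 CPM (0.542, 0.426 to 0.682).

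Within cDC1 gene members the comparison ran the other way for several of these genes. Of 2004 genes measured there 229 (11.4%) were past 1.5-fold higher and 114 (5.69%) lower, with 775521 UMIs in the IL-27 cells and 427933 in the control cells, so here high IL-27 genes passed more easily. The median over all genes was 0.09. Il1b had 1868 CPM in IL-27 and 1215 CPM in control cDC1 gene members, a ratio of 1.54 (1.39 to 1.70). Cxcl2 had 432 and 112 CPM (3.85, 2.84 to 5.33). Non-cycling cDC1 gene cells had 1397 and 1470 CPM of Il1b and 1429 and 2351 CPM of Cxcl2, without that excess in the IL-27 matrix. Csf2rb had 1347.5 and 818 CPM (1.65, 1.46 to 1.87), against 0.542 in C1q members. Fth1 had 3971.5 and 2839 CPM (1.40, 1.31 to 1.496). For MHC class I, 4 of 14 measured genes were past 1.5-fold lower and 0 higher, with a median of -0.38. Non-cycling cDC1 gene cells had nearly the same, with 5 of 15 lower, 0 higher and a median of -0.39, so this was not particular to members. H2-K1, a class I heavy chain, had 860 and 1573 CPM (0.547, 0.491 to 0.610) in cDC1 gene members but 943 and 777 CPM (1.21, 1.02 to 1.45) in C1q members. For MHC class II none of 12 genes was past 1.5-fold: H2-Ab1 had 8278 and 8950 CPM (0.925) and Cd74, the chain that guides class II to its peptides, 21157 and 24462 CPM (0.865). The difference between the groups' ratios was not tested.

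Genes of the IL-27 pathway were thinly covered. The receptor gene Il27ra had 1 UMI in the members of each matrix, and Il6st, its signalling partner, 24 UMIs in each, both under the minimum. Socs3, a feedback inhibitor of this signalling, had 112 CPM in IL-27 and 258 CPM in control members, a ratio of 0.433 (0.357 to 0.523). It lay lower in C1q members (174 and 299.9 CPM, 0.580, 0.388 to 0.844) and in cDC1 gene members (68.3 and 138 CPM, 0.496, 0.336 to 0.731). Jak2, a kinase of cytokine receptors, had 410 and 206 CPM (1.99, 1.73 to 2.29), and 1.49 (0.750 to 2.83) in C1q and 1.24 (1.04 to 1.48) in cDC1 gene members. Of 9 measured genes of this list 1 was past 1.5-fold higher and 2 lower, with a median of 0.02.

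Interferon-stimulated genes were lower in the IL-27 matrix, in members and in non-cycling myeloid cells. Of 9 measured in members 6 were past 1.5-fold lower and 0 higher, with a median log2 ratio of -1.13. In non-cycling cells the median was -0.68, beside 0.04 over all genes there. Ifi27l2a, an interferon-induced mitochondrial protein, had 84.0 CPM in IL-27 and 464 CPM in control members (0.181, 0.148 to 0.221), and 248 and 522 CPM (0.475, 0.342 to 0.646) in C1q members. In cDC1 gene members it had 33.5 and 42.1 CPM (0.797, 0.421 to 1.54), with an interval that includes 1. Isg15, a ubiquitin-like protein, had 60.9 and 199 CPM (0.306, 0.238 to 0.391), 105 and 136 CPM in C1q (0.776, 0.451 to 1.28) and 38.7 and 70.1 CPM in cDC1 gene members (0.552, 0.321 to 0.947). Ifitm3, which blocks virus entry, had 1077 and 1558 CPM (0.691, 0.647 to 0.738), with 0.793 in C1q and 0.803 in cDC1 gene members. Isg15 had a UMI in 24.2% of IL-27 and 35.95% of control T cells without Tyrobp, at medians of 4285.5 and 5815.5 UMIs.

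**Figure D5:**
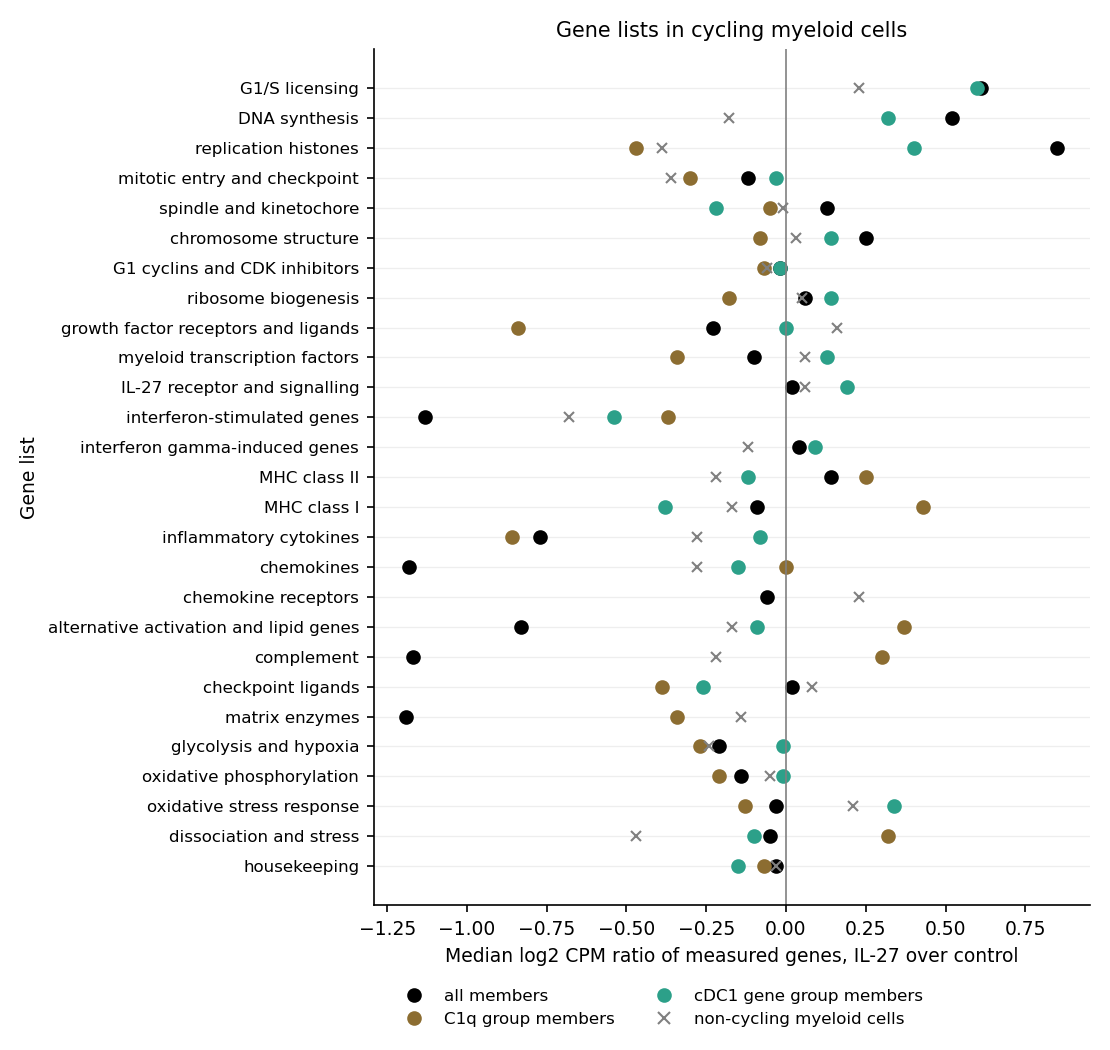
Median log2 CPM ratio of IL-27 over control for gene lists (rows) with at least 3 measured genes, in all members, C1q group members, cDC1 gene group members and non-cycling myeloid cells. Complement (-1.17 in all members, 0.30 in C1q members) and the interferon-stimulated genes (-1.13 in all members, -0.68 in non-cycling cells) are examples, and the second of these lists had -0.37 in C1q members (3 genes) and -0.54 in cDC1 gene members (4 genes).

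Outside the lists, the extremes were genes of few cells. Lrba, which recycles CTLA-4, had 90 UMIs in 25 IL-27 members and 16 in 11 control members (65.2 and 10.5 CPM, 6.21, 3.63 to 11.3), and 3.54 (1.92 to 7.15) within cDC1 gene members. Acvrl1, a receptor of the TGF-beta family, had 47.1 and 14.4 CPM (3.26, 1.99 to 5.56), with 61 of its 65 IL-27 UMIs in cDC1 gene members. At the low end Il4i1 had 4 UMIs in 2 IL-27 members and 93 in 10 control members, and Cd209a 11 UMIs in 6 and 98 in 7. The platelet chemokine Ppbp had 7.97 and 58.4 CPM (0.137, 0.0658 to 0.256), and 52.7 and 104 CPM in C1q members.

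Set against non-cycling cells of their own gate, members were chosen on division genes, so the comparison is a description. Of 5114 genes measured in each matrix, 263 (5.14%) were past 2-fold higher in members in both matrices and 336 (6.57%) past 2-fold lower. The median log2 ratio over well-covered genes was 0.18 in each matrix, and scaling by it gave 196 higher and 478 lower. Of the chromosome structure genes 16 of 17 measured were past 2-fold higher in the IL-27 matrix and 14 of 15 in control, with medians of 2.90 and 2.04. Outside the cycle lists the highest were genes of division itself: Cep55, which completes cell separation, at 52.9 CPM in IL-27 members and 0.857 CPM in IL-27 non-cycling cells (61.7-fold), and at 41.3 and 0.717 CPM in the control matrix (57.7-fold). Gmnn, the inhibitor of renewed replication licensing, was 9.88-fold higher in the IL-27 and 8.37-fold higher in the control matrix. Plk4, the kinase that copies centrioles, was 5.48-fold and 5.16-fold higher, and H2afv, a histone variant, 6.39-fold and 6.46-fold.

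Chemokines were lower in dividing than in non-dividing cells with cDC1 genes, and so were neutrophil genes. Among cDC1 gene cells of the IL-27 matrix 211 of 2749 genes (7.68%) were past 2-fold higher in members and 124 (4.51%) lower, and in the control matrix 128 of 2474 (5.17%) and 227 (9.18%). In these cells 6 of 9 measured chemokines were past 2-fold lower in the IL-27 matrix (median log2 -1.73) and 7 of 12 in the control matrix (-3.24). S100a9 was at 10.3 CPM in members and 167 CPM in non-cycling cells with IL-27, and at 0 and 102 CPM in control. The rule gene Lyz2 was at 554.5 and 1040 CPM with IL-27, and 178 and 937 CPM in control. Without the 2 IL-27 and 3 control non-cycling cells of over 20 S100a8 and S100a9 UMIs, 5 of 8 chemokines were past 2-fold lower with IL-27 (-1.26) and 7 of 12 in control (-3.02). Cxcl2 had 432 CPM in members and 1429 CPM in non-cycling cDC1 gene cells with IL-27 (0.302, 0.268 to 0.341), and 112 and 2351 CPM in control (0.0477, 0.0351 to 0.0634). Without the cells named above its ratios were 0.359 and 0.0676. Ccl3 had 23.2 and 89.2 CPM with IL-27 and 4.67 and 233.8 CPM in control. Its ratio with IL-27 was 0.260 (0.147 to 0.436), but 0.930 (0.476 to 1.79) without the 2 cells. The cytokine Il1b did not share this in the IL-27 matrix, at 1868 CPM in members and 1397 CPM in non-cycling cells (1.34, 1.24 to 1.44), while control had 1215 and 1470 CPM (0.827, 0.749 to 0.911). Cebpb was at 19.3 and 88.2 CPM with IL-27 and 21.0 and 153 CPM in control. Antigen presentation held nearly level: H2-Ab1 was at 8278 CPM in members and 8449 CPM in non-cycling cells with IL-27 (0.980), and at 8950 and 10383 CPM in control (0.862).

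Among C1q cells 31 of 3218 genes (0.963%) were past 2-fold higher in IL-27 members and 551 (17.1%) lower, and in control 100 of 4241 (2.36%) and 313 (7.38%), again with fewer UMIs on the side of the members. Inflammatory cytokines were lower in members: 6 of 14 past 2-fold in the IL-27 matrix (median log2 -0.90, beside -0.39 over all genes) and 4 of 14 in the control matrix (-0.54, beside -0.19). Il1b had 2108 CPM in members and 3429 CPM in non-cycling C1q cells with IL-27 (0.615, 0.555 to 0.679), and 4367 and 5150 CPM in control (0.848, 0.815 to 0.883). Mrc1 was 0.603 of its non-cycling level with IL-27 and 0.588 in control. Of the oxidative phosphorylation genes 0 of 23 with IL-27 and 0 of 25 in control were past 2-fold. Their medians of 0.12 and 0.23 lay above those of all genes in this group, -0.39 and -0.19. The corresponding medians in cDC1 gene cells were 0.23 and 0.30, beside -0.00 and -0.19 over all genes there.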

How the data were processed

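Single-cell libraries (10x 5' chemistry) were deposited as 1 matrix of UMI counts per group. The authors made the counts with Cell Ranger 4.0 and used Seurat 3.2.0 on mm10, per the submitters' processing notes, and the file headers name Cell Ranger 4.0.0. The annotation release is not given in the sources used here. Barcodes stayed in if they had 200 or more genes, 500 or more UMIs and less than 10% mitochondrial UMIs. Doublets were not removed, and Scrublet scores (scanpy 1.11.5) served as an alternative.

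Counts were summed over cells and scaled to CPM. With 1 matrix per group no test across samples was made, and exact Poisson, Clopper-Pearson and conditional binomial intervals at 95% were computed (Python 3.11.15, numpy 2.4.6, pandas 2.3.3, scipy 1.17.1, matplotlib 3.10.9). A gene was measured with at least 50 UMIs in the matrix of higher CPM and in at least 5% of its cells there. Calls were 1.5-fold between matrices and 2-fold between cycling and non-cycling cells, with no p-value. The step was tested on simulated data. In 27 gene lists 523 of 525 symbols matched, with Aldoa and Mx2 unmatched, as was the marker Cd301b.

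Members and lists were chosen with earlier results of these data known, and the marker group minimums (C1q 3, cDC1 genes 2, Ccr7 2, Siglech 1 UMI) after the data were seen. Named genes were those of the rule for members, up to 4 per list with the largest ratio between matrices and 2 with most UMIs, the 10 highest and 10 lowest over all genes and the 15 highest in cycling over non-cycling cells outside the cell cycle lists. Fixed markers were named too, and other genes were chosen after their values were seen. Gene coordinates and promoters are from RefSeq, GRCm38.p6. A result that is withheld for evaluation is not reported here.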

Additional observations from a re-analysis of the deposited data

How the results depend on the processing

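Ratios below are IL-27 over control, and alternatives by marker group, by the larger marker set, with thinned division genes, by transcript length and without high S100a8 and S100a9 cells within a marker group were chosen after seeing the data. Removing the 8% highest doublet scores, a 5% mitochondrial limit, a limit of 50000 UMIs, a limit of 20 S100a8 and S100a9 UMIs, at least 5 division UMIs and median-ratio scaling left the shares, make-up, phase genes and gene counts within the spread or within 1.5 times, where each gave a value. Applying the whole rule after thinning to 2000 UMIs left 7 IL-27 and 17 control members, and ratios of 0.563 for the share of cells kept and 0.562 for the share of the gate. It could give no value for the make-up, since too few cDC1 gene members remained. The median log2 ratio of S-phase genes was 0.54 over all members and -0.35 in the C1q group alone. Without the filter on low counts 1890 genes were higher and 2246 lower, in place of 356 and 423, and in the cycling over non-cycling comparison 1036 and 526, in place of 263 and 336. The C1q group alone gave 42 higher and 260 lower, with 25 and 63 in cycling over non-cycling cells. The cDC1 gene group alone gave 229 and 114, with 83 and 54. Of the 356 higher and 423 lower genes, 4 and 72 were called the same way in the C1q group alone, 85 and 15 in the cDC1 gene group alone, and 247 and 258 by the mean of single-cell CPM. Signs turned in the C1q group alone for replication histones (-0.47), alternative activation and lipid genes (0.37), complement (0.30), Fabp5 (0.64), C1qa (0.45), C1qb (0.34) and Mmp9 (0.54), and in the cDC1 gene group alone for Cxcl2 (1.95) and Fth1 (0.48), all as log2 ratios. These settings hold fewer cells and 1 marker group by construction. Of 37 named genes past 1.5-fold, 29 stayed past it by the mean of single-cell CPM and 34 of the 35 measured with at least 5 division UMIs. No paired analysis was possible because each group is 1 matrix whose cells are not tied to an entry. Depth limits genes such as Il27ra, with 1 UMI in the members of each matrix.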

Other observations

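The 13 IL-27 and 13 control members in no marker group were a mix. Mrc1 was seen in 6 IL-27 and 5 control cells of these, Csf1r in 5 and 5 and Kit in 4 and 2, while Flt3, Clec9a and Itgae had no UMI in any of them. Their median depth was 10284 UMIs in IL-27 and 4896 in control. More S-phase and histone than mitotic UMIs were found in 4 of the 13 IL-27 and 1 of the 13 control cells.

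Markers of mast cells and basophils were concentrated in few members. All 342 such UMIs of the IL-27 matrix lay in 1 member, and the 368 of the control matrix in 3 members. NK cell markers other than Ncr1, which the rule set to 0, had 46 UMIs in 15 IL-27 members and 21 UMIs in 11 control members.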
